A study of Mus musculus with 30 samples.

Results

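The genes described here are named for the proteins of the mitochondrial ribosome, which all but Mrps36 are known to encode. They were taken by name, as every gene whose symbol is Mrpl or Mrps followed by a number and at most 1 letter and whose mean over all tumors was at least 10 counts. Of 78 such symbols in the GENCODE M21 annotation, 68 were among the 39676 genes in the counts, and 66 of these passed the minimum, out of 15926 genes that passed it in all. Whole tumors grown subcutaneously in female C57BL/6 mice from B16-F10 melanoma cells were harvested on day 8, 10 of each type. B16.GFP.gB.luc tumors (the B16-GFP group of the labels) carried an empty retroviral vector with eGFP, while B16.IFNα4.gB.luc (B16-IFNA4) and B16.IFNα9.gB.luc (B16-IFNA9) tumors carried the same vector with the IFNα4 or the IFNα9 gene under its viral long terminal repeat. All 3 lines also expressed glycoprotein B of herpes simplex virus linked to CFP and firefly luciferase with puromycin resistance, and each was a pool of sorted cells, so that a tumor's type and the line it grew from cannot be told apart. The mice were adults, and below the tumors are called GFP, IFNα4 and IFNα9 tumors. The question is how the messenger RNAs of mitochondrial ribosomal proteins compared between tumors that secrete different subtypes of type I IFN (IFN-I) and tumors that do not.

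Mitochondria keep a small genome of their own, whose messenger RNAs encode core subunits of the respiratory chain and the ATP synthase. A dedicated ribosome, built from RNAs encoded in that genome and from proteins encoded in the nucleus, translates these messages at the inner membrane. Its small subunit decodes the message and its large subunit forms the peptide bond. Many of its proteins have counterparts in bacterial ribosomes, and others are found only in mitochondria. Genes for oxidative phosphorylation and for the mitochondrial ribosome are often regulated together, with NRF1, ETS factors such as GABPA, YY1 and the PGC-1 coactivators among the known regulators.

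Library totals lay between 14598517 and 19788383 counts, and the TMM normalization factor from 0.768 to 1.10. Both lowest values belonged to GFP tumor 7, which stood apart from the other tumors of its type in many of the genes below. List counts against GFP tumors, and values of single genes that change their call or move by over 1.5 times, are therefore also given without it. Counts of Ifna4 were 81 to 188 per IFNα4 tumor and those of Ifna9 55 to 148 per IFNα9 tumor, and both genes were at 0 in the remaining tumors. The melanocyte label was checked with 6 genes measured of 10 listed, none of which was at 0 throughout a type. Their summed level was 7938 to 26030 CPM in GFP, 2417 to 3919 CPM in IFNα4 and 3669 to 9583 CPM in IFNα9 tumors.

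Together, the 66 genes took 0.268% to 0.471% of all counts in GFP tumors, 0.183% to 0.221% in IFNα4 and 0.204% to 0.272% in IFNα9 tumors. Their mean log2 CPM per tumor (CPM is the count relative to the TMM-scaled library total, here with 2 counts added) was 5.03 at the lowest, 5.38 at the median and 6.29 at the highest in GFP tumors. It was 4.62, 4.74 and 4.87 in IFNα4 tumors and 4.73, 4.81 and 5.14 in IFNα9 tumors. All IFNα4 tumors therefore lay below all GFP tumors, and IFNα9 tumors overlapped with them only through tumor 5, the highest of that type. GFP tumor 7 was the highest of its type for 64 of the 66 genes, and without it the range of this type was 5.03 to 5.61. GFP tumor 1 was the lowest of its type for 32 genes and IFNα9 tumor 5 the highest of its type for 36. Within types, the SD of a gene's log2 CPM over the 10 tumors had a median of 0.39 in GFP, 0.14 in IFNα4 and 0.18 in IFNα9 tumors, against 0.41, 0.25 and 0.28 over all genes tested. Without tumor 7, the median in GFP tumors was 0.22, against 0.32 over all genes.

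**Figure D1:**
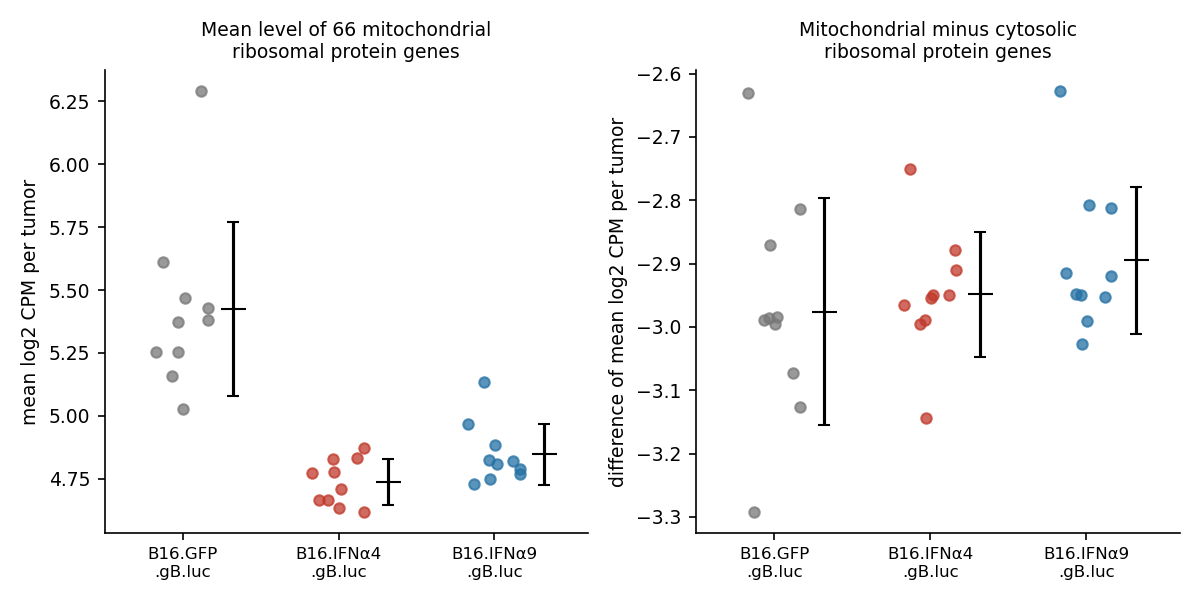
Left, the mean log2 CPM of the 66 mitochondrial ribosomal protein genes in each tumor, and right, that mean minus the mean of 74 cytosolic ribosomal protein genes (log2 units), by tumor type. Points are single tumors and the bars give the mean and SD over 10 tumors. On the left, GFP tumors reach from 5.03 to 6.29 and all IFNα4 tumors lie at or below 4.87, while on the right the 3 types overlap and all tumors lie between −3.29 and −2.63.

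Before single genes are described, sequence upstream of 6 of them is shown, chosen to set genes with the largest fall or a known regulatory motif beside 2 genes that did not fall. Mrpl12 and Mrpl28 had the largest falls, Mrpl45 and Mrpl58 hold motifs of NRF1 and of ETS factors, and Mrpl24 and Mrpl1 are described below as exceptions. Each stretch is the longest run outside annotated exons within the 250 bases before the RefSeq start (GRCm38.p6), read 5′ to 3′ on the gene's strand, and capitals mark matches of the motifs listed in the next paragraph. For Mrpl1, the stretch lies after the first start in GENCODE M21, in an intron of that gene model.
Mrpl12, chr11:120484387-120484612, plus strand: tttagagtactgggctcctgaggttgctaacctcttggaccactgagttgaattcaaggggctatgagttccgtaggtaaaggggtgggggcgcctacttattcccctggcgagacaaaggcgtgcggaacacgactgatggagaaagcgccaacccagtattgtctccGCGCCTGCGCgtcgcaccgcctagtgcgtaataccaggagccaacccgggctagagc
Mrpl28, chr17:26123255-26123499, plus strand: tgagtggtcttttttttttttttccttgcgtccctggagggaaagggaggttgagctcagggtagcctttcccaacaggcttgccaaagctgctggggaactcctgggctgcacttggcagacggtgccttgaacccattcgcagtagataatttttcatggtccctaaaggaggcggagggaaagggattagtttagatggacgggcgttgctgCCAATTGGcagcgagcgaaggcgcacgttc
Mrpl45, chr11:97315466-97315715, plus strand: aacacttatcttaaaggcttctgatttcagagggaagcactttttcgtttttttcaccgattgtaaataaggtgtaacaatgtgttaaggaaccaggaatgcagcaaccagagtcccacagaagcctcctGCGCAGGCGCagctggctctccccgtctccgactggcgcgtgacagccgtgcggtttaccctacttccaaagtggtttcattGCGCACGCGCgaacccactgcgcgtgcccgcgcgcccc
Mrpl58, chr11:115403502-115403751, plus strand: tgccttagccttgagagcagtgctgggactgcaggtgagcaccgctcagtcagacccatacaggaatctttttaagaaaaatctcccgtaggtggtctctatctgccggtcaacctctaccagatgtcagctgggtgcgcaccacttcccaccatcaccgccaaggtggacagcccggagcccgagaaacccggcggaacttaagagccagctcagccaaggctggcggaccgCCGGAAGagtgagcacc
Mrpl24, chr3:87919294-87919505, plus strand: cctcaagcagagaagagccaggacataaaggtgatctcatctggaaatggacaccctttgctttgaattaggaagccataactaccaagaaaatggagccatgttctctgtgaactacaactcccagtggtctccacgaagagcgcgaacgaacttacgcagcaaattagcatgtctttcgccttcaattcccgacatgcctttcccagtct
Mrpl1, chr5:96209865-96210080, plus strand: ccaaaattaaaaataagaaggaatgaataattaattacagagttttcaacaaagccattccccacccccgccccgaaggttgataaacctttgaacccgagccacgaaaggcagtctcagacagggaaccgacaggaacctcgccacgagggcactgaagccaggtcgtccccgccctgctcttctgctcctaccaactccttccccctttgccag

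RefSeq promoters, from 250 bases before to 50 after the start, were matched by symbol for 58 of the 66 genes. They were searched on both strands for the NRF1 motif, CCGGAAG (ETS factors such as GABPA), AAGATGGC (YY1), CACGTG (the E-box bound by MYC, which reads the same on both strands), the core of the interferon-stimulated response element, CCAAT and TATAAA. Matches of CCGGAAG and AAGATGGC can overlap. An ETS match was found in 20 of the 58 promoters (34.5%), against 15.8% of the promoters of 10739 tested genes and 9.12% of all 27025 promoters. The NRF1 motif was in 11 (19.0%, against 8.81% and 4.78%) and the YY1 motif in 7 (12.1%, against 4.07% and 2.88%). The E-box was in 4 (6.90%, against 9.35% and 7.24%), the response element core in 3 (5.17%, against 3.33% and 3.49%), CCAAT in 21 (36.2%, against 38.3% and 37.9%) and TATAAA in 3 (5.17%, against 8.63% and 14.2%). The median GC content was 58.2%, against 60.0% for tested genes. In the stretches above, Mrpl12 holds 1 NRF1 match, on the opposite strand, and Mrpl45 holds 2. In Mrpl28, CCAAT matches on the opposite strands overlap each other, and Mrpl24 and Mrpl1 hold none of the motifs in the stretch shown. Members with an NRF1 match had a median log2 fold change of −0.74 in IFNα4 and −0.69 in IFNα9 against GFP tumors, and those without −0.69 and −0.53. With an ETS match the medians were −0.74 and −0.62, and without one −0.69 and −0.54. With a YY1 match they were −0.69 and −0.69 (without, −0.69 and −0.53), and with CCAAT −0.66 and −0.51 (without, −0.69 and −0.60). With the E-box (4 genes) they were −0.73 and −0.66 (without, −0.69 and −0.54), and with TATAAA (3 genes) −0.74 and −0.47 (without, −0.69 and −0.55). With the response element core (3 genes) they were −0.98 and −0.94 (without, −0.69 and −0.54), but Mrps18c, among these genes, changed by only −0.16 and −0.30. These are descriptions of letters in a window, with no test.

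In IFNα4 tumors, 63 of the 66 mitochondrial ribosomal protein genes were lower than in GFP tumors and 0 were higher, and the median change was −0.69 on the log2 scale (edgeR quasi-likelihood fit, Benjamini-Hochberg adjusted p under 0.05 over all genes). Over all 15926 genes, 34.1% were lower and 31.3% higher by the same rule, 65.4% in all, and the median was 0.01. In 31 of the 66, every IFNα4 tumor lay below every GFP tumor, against 10.0% of all genes (8.50% were separated the other way), and 13 were at least halved. Because whole tumors were sequenced, fewer cells that express a gene and less of its RNA per cell cannot be told apart here. Without GFP tumor 7, 61 members were lower and 1 was higher, against 31.3% and 31.1% of all genes, and the members' median was −0.58. In the same comparison all 6 melanocyte genes measured were lower and all 5 leukocyte genes higher, and their part in the difference was not tested.

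Mrpl12 had the largest fall. It encodes the protein of the flexible stalk on which translation factors land, lies on chromosome 11 from 120484613 to 120489065 (ENSMUSG00000039640.7, GRCm38), and is preceded by the first sequence shown above. Its level was 51.1, 104 and 185 CPM (lowest, median and highest tumor) in GFP tumors, 24.5, 32.9 and 45.1 CPM in IFNα4 tumors and 29.5, 36.5 and 74.7 CPM in IFNα9 tumors. All IFNα4 tumors were below all GFP tumors, whereas the highest IFNα9 tumor, tumor 5, was above the lowest GFP tumor. On the log2 scale, Mrpl12 changed by −1.62 in IFNα4 tumors (standard error 0.18, adjusted p = 6.00e-09, edgeR) and by −1.35 in IFNα9 tumors (standard error 0.18, adjusted p = 3.29e-07, edgeR). Without GFP tumor 7 these were −1.47 and −1.21. Mrpl10, whose protein anchors the stalk to the large subunit, changed by −0.55 (standard error 0.08, adjusted p = 1.42e-06, edgeR) and −0.46 (standard error 0.08, adjusted p = 3.79e-05, edgeR). Mrpl11, the other protein of the stalk base, was not analysed here.

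Mrpl28, a large subunit protein with a bacterial counterpart, was at 23.4, 42.2 and 107 CPM (lowest, median, highest) in GFP, 13.4, 18.2 and 20.8 CPM in IFNα4 and 16.5, 19.2 and 31.1 CPM in IFNα9 tumors. Only the IFNα4 tumors were separated from GFP tumors. Its log2 fold change was −1.45 (standard error 0.18, adjusted p = 5.45e-08, edgeR) with IFNα4 and −1.23 (standard error 0.18, adjusted p = 1.73e-06, edgeR) with IFNα9. Mrpl44, a large subunit protein with a fold related to ribonuclease III, ran from 35.8 through 51.9 to 127 CPM in GFP tumors, from 22.9 through 25.4 to 28.9 CPM in IFNα4 tumors and from 20.8 through 26.5 to 35.7 CPM in IFNα9 tumors. No tumor of either IFN-I–secreting type reached the lowest GFP tumor for this gene, although the highest IFNα9 tumor came close. Mrpl44 fell by 1.22 (standard error 0.15, adjusted p = 3.38e-08, edgeR) and by 1.15 (standard error 0.15, adjusted p = 2.02e-07, edgeR) on the log2 scale. Mrps24, a small subunit protein close to the channel where the message enters, fell by 1.24 and 1.13 (standard error 0.20 in each), but the neighboring gene Urgcp shares 11.8% of the 50-base stretches of Mrps24, so that the counting could have split reads between them. Mrpl54, a large subunit protein without a bacterial counterpart, was among the 5 largest falls with IFNα9, at −1.13 (standard error 0.16, adjusted p = 1.45e-06, edgeR), against −0.87 with IFNα4. The difference of Mrpl54 between the IFN-I–secreting types was −0.26 (standard error 0.16, adjusted p = 0.295, edgeR) and did not pass the test. Without GFP tumor 7, each of Mrpl28, Mrpl44, Mrps24 and Mrpl54 remained lower in both comparisons.

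**Figure D2:**
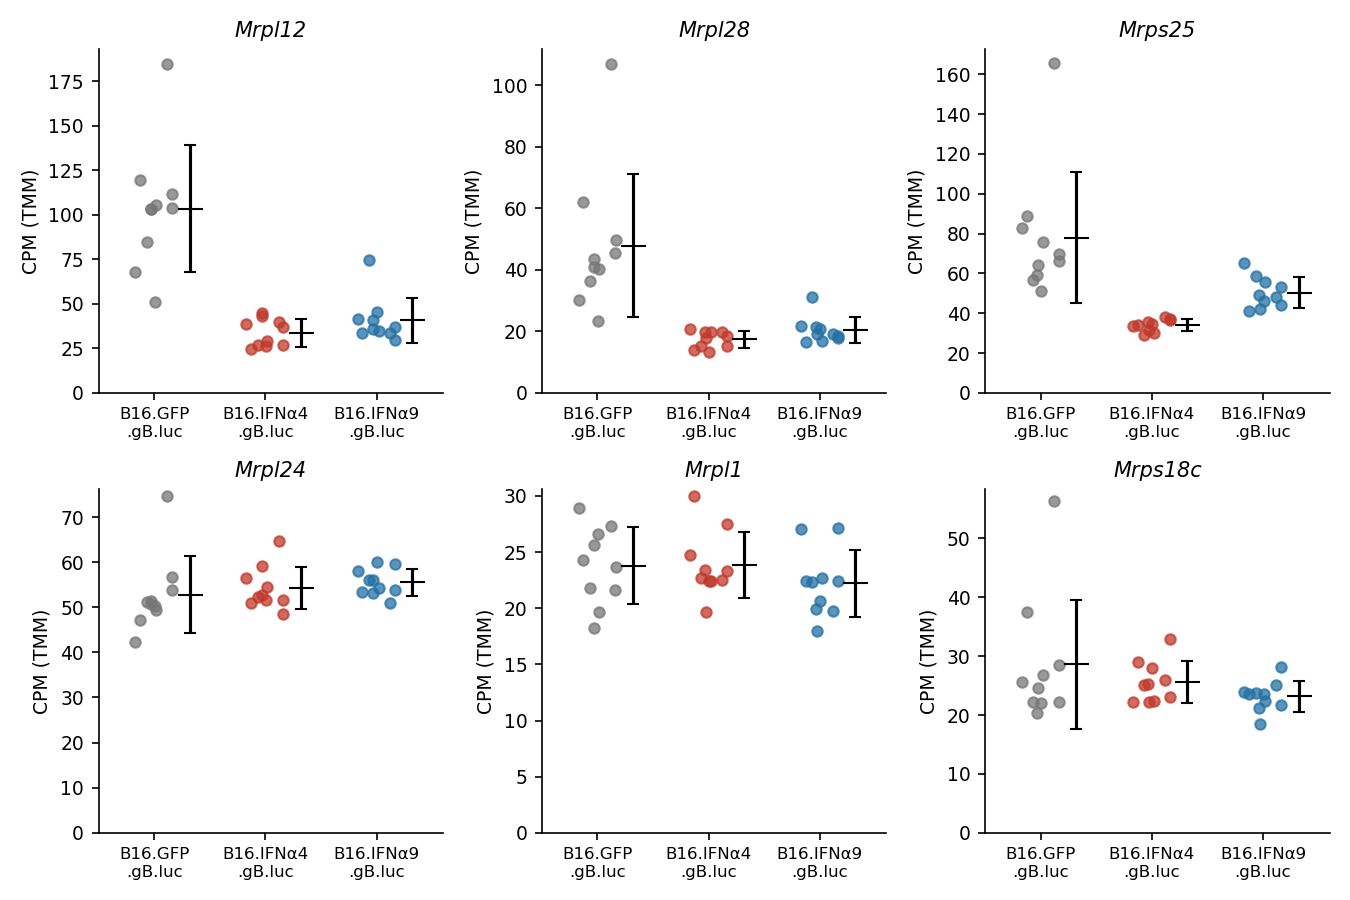
TMM-scaled CPM of 6 genes in single tumors by type, with the mean and SD over 10 tumors beside the points and axes that start at 0. Mrpl12 and Mrpl28 are lower in both IFN-I–secreting types, Mrps25 lies in between in IFNα9 tumors, and Mrpl24, Mrpl1 and Mrps18c overlap across types. The highest GFP point is tumor 7 in all panels but that of Mrpl1.

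In IFNα9 tumors, the same 63 genes were lower than in GFP tumors and 0 were higher, and the median change was −0.57 on the log2 scale. Of all genes, 28.9% were lower and 26.9% higher (55.7% in all), or 22.7% and 31.7% when libraries were scaled by their totals, a scaling that raised the median of all genes by 0.10. Under that scaling 57 members were lower and 1 was higher, with a median of −0.44. The groups did not overlap for 11 members, against 3.35% of all genes (4.44% the other way), and 6 members were at least halved. For 8 members, among them Mrpl44, neither type of IFN-I–secreting tumor overlapped with GFP tumors. Both comparisons share the same GFP tumors, so these counts are not independent of each other. The shares of all genes that were separated in both comparisons, or at least halved in either, were not counted. Without GFP tumor 7, 60 members were lower and 1 was higher, against 26.7% and 26.5% of all genes, and the members' median was −0.44. Here too the 6 melanocyte genes were lower and the 5 leukocyte genes higher, with the same limit.

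The 3 genes that passed the test in neither comparison were Mrpl24, Mrpl1 and Mrps18c, of which Mrpl24 was chosen after its values were seen. Mrpl24, a large subunit protein near the exit of the peptide tunnel, was at 42.3, 50.9 and 74.6 CPM (lowest, median, highest) in GFP, 48.4, 52.6 and 64.6 CPM in IFNα4 and 50.9, 55.2 and 60.0 CPM in IFNα9 tumors. The types overlapped, and the log2 fold change was 0.04 with IFNα4 (95% interval −0.10 to 0.18, adjusted p = 0.625, edgeR) and 0.07 with IFNα9 (95% interval −0.07 to 0.22, adjusted p = 0.388, edgeR). Leaving out GFP tumor 7 made Mrpl24 the 1 gene of the 66 that was higher, by 0.13 (adjusted p = 0.0459, edgeR) and 0.15 (adjusted p = 0.0248, edgeR). With all tumors kept but libraries scaled by their totals, Mrpl24 was also higher with IFNα9, by 0.19 (adjusted p = 0.0212, edgeR). Mrpl24 overlaps Rrnad1 on the opposite strand, and the strand setting of the counting is not given. Mrpl1, the protein of the other stalk of the large subunit, was at 18.2, 24.0 and 29.0 CPM in GFP, 19.6, 23.0 and 30.01 CPM in IFNα4 and 17.97, 22.4 and 27.1 CPM in IFNα9 tumors. These ranges are nearly the same. The fold change of Mrpl1 was 0.01 (95% interval −0.17 to 0.18) and −0.10 (95% interval −0.28 to 0.08), and its sign changed with the scaling or the tumors in the fit. Mrps18c, 1 of 3 relatives of a bacterial small subunit protein, was at 20.4, 25.1 and 56.4 CPM in GFP, 22.2, 25.2 and 32.9 CPM in IFNα4 and 18.5, 23.5 and 28.2 CPM in IFNα9 tumors. Its fold change was −0.16 (95% interval −0.42 to 0.11, adjusted p = 0.310, edgeR) and −0.30 (95% interval −0.57 to −0.04, adjusted p = 0.0590, edgeR), and without GFP tumor 7 it was 0.02 and −0.13. With IFNα9, Mrps18c passed the test as lower on leaving out any 1 of GFP tumors 1, 4, 5 or 8 or IFNα9 tumor 4 (adjusted p = 0.0312 to 0.0499, edgeR). Of its 50-base stretches, 19.2% also occur in other genes, the overlapping Gm43511 among them.

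The relatives Mrps18a and Mrps18b, of which the first sits in the large subunit, were lower by small amounts. Mrps18a changed by −0.26 (standard error 0.11, adjusted p = 0.0421, edgeR) with IFNα4, a call lost on leaving out any 1 of GFP tumors 3, 4, 7 or 9 or IFNα4 tumors 1, 2, 3, 5, 8 or 9 (−0.13 without GFP tumor 7, adjusted p = 0.194, edgeR), and by −0.42 (standard error 0.11, adjusted p = 0.00245, edgeR) with IFNα9. The IFNα4 call of Mrps18a was also lost under library totals (−0.15, adjusted p = 0.157, edgeR), DESeq2 size factors, no filter, only the types compared and the replicate block. Mrps18b changed by −0.24 (standard error 0.08, adjusted p = 0.0111, edgeR) and −0.27 (standard error 0.08, adjusted p = 0.00589, edgeR), and 14.6% of its stretches occur in the gene Gm13552. With IFNα4, all 3 relatives thus lay among the members with the smallest differences. Under library totals Mrps18b passed the test in neither comparison. Mrps30, which also sits in the large subunit despite its name, changed by −0.34 and −0.28. Without GFP tumor 7 the first was −0.20 (adjusted p = 0.0376, edgeR), and the second was not past the threshold without that tumor (−0.16, adjusted p = 0.111, edgeR) or without GFP tumor 10, IFNα9 tumor 6 or IFNα9 tumor 8, nor under library totals (−0.15, adjusted p = 0.136, edgeR), without a filter or with only the types compared.

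By subunit, 40 of 42 large subunit genes were lower with IFNα4 and 40 with IFNα9, with median log2 fold changes of −0.69 and −0.54. Of the 23 small subunit genes, 22 were lower in each comparison, with medians of −0.78 and −0.58. By origin, all 24 genes classed as having no counterpart in bacterial ribosomes were lower in both, with medians of −0.74 and −0.59. So were 38 of 41 genes classed as having one, with medians of −0.69 and −0.55. The 3 genes that passed neither test were all classed as having a counterpart. These classes split a family, as Mrps18c was classed with a counterpart and its relatives Mrps18a and Mrps18b, both lower, without one. Mrpl58, a large subunit protein related to bacterial release factors that frees stalled peptides, fell by 1.00 (standard error 0.14, adjusted p = 7.05e-07, edgeR) and 0.71 (standard error 0.14, adjusted p = 1.45e-04, edgeR). Mrpl45, which faces the inner membrane at the exit of the tunnel, fell by 0.69 (standard error 0.08, adjusted p = 3.70e-08, edgeR) and 0.48 (standard error 0.08, adjusted p = 2.49e-05, edgeR). Mrps36, left out of both subunits because it is now known as a component of the 2-oxoglutarate dehydrogenase complex, fell by 0.78 and 0.64 (standard error 0.13 in each), with 17.3% of its stretches shared with other genes. Mrps27 was not analysed here.

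**Figure D3:**
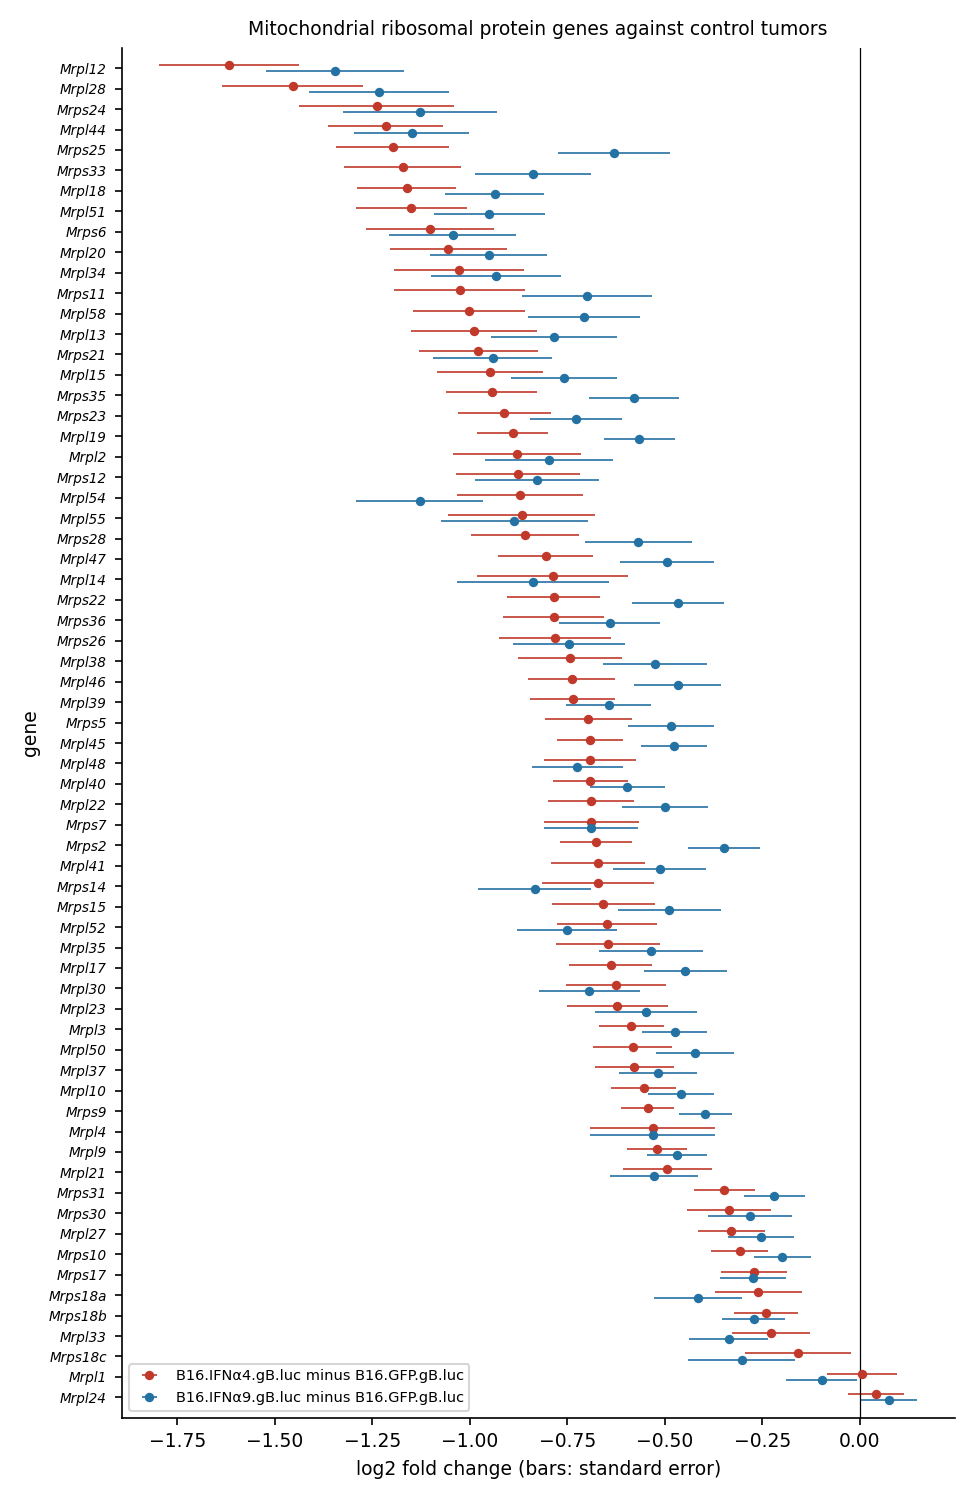
Log2 fold change against GFP tumors for each of the 66 genes, ordered by the change in IFNα4 tumors, with bars of 1 standard error. All values but those of Mrpl24 and the IFNα4 value of Mrpl1 are below 0, and the IFNα4 values run from −1.62 for Mrpl12 to 0.04 for Mrpl24.

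Per kb of exon sequence (the union of a gene's exons), the mean level over all 30 tumors was highest for Mrps21 (55.1 CPM per kb), Mrps33 (43.9), Mrpl12 (38.8), Mrps23 (32.1) and Mrpl18 (30.4). The order differed between types: Mrps21 was the first in each, but Mrpl12 was rank 2 in GFP tumors (67.6 CPM per kb), rank 8 in IFNα4 tumors (22.0) and rank 4 in IFNα9 tumors (26.6), and Mrpl18 was outside the first 5 in both IFN-I–secreting types. Mrps21, Mrps23 and Mrps33 are small subunit proteins and Mrpl18 belongs to the part of the large subunit that binds a structural tRNA. The lowest were Mrps26 (4.15 CPM per kb), Mrps35 (4.30), Mrps10 (4.99), Mrpl48 (5.41) and Mrpl1 (5.43). Here too types differed, as Mrpl1 was rank 66 of 66 in GFP tumors but 52 in IFNα4 and 60 in IFNα9 tumors, and Mrpl48 was rank 59 in GFP tumors. Divided by the mean transcript length instead, Mrps33 and Mrps21 were still the first 2 and Mrps26 and Mrpl1 the last 2, while Mrpl48 moved from rank 63 to 37 and Mrps10 from 64 to 41. Mrps33 was at 73.0, 97.6 and 247 CPM (lowest, median, highest) in GFP, 41.8, 48.1 and 60.5 CPM in IFNα4 and 49.1, 60.5 and 77.5 CPM in IFNα9 tumors. It fell by 1.17 with IFNα4 (standard error 0.15, adjusted p = 9.19e-08, edgeR) and by 0.84 with IFNα9 (standard error 0.15, adjusted p = 2.81e-05, edgeR), and other genes share 13.3% of its 50-base stretches. The fall with IFNα4 was 1.16 for Mrpl18, 0.98 for Mrps21 and 0.91 for Mrps23 on the log2 scale, and with IFNα9 it was 0.94, 0.94 and 0.73. Among the lowest, it was 0.94 for Mrps35, 0.78 for Mrps26, 0.69 for Mrpl48 and 0.31 for Mrps10 with IFNα4, and 0.58, 0.74, 0.72 and 0.20 with IFNα9. Without GFP tumor 7, the IFNα9 value of Mrps10 was −0.13 and did not pass the test (adjusted p = 0.0838, edgeR), nor did it under library totals, without a filter or with only the types compared. The 33 members above the median level per kb had median fold changes of −0.74 and −0.64, and the 33 below it −0.67 and −0.53.

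At the minimum of 10 counts, Mrpl34 was the nearest member inside, with a mean of 136 counts. Outside it were Mrps34, with 8.43 counts on average and 2 to 25 per tumor, and Mrpl53, with 0.667 counts on average and 0 to 4 per tumor. Of the 50-base stretches of these genes, 34.2% and 82.0% also occur in the overlapping genes Nme3 and Gm42688, and the part of this sharing in their low counts was not tested.

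Between the IFN-I–secreting tumors, 4 of the 66 genes were higher in IFNα9 than in IFNα4 tumors (6.06%) and 0 were lower, against 10.5% of all genes higher and 7.25% lower (17.8% in all). At an unadjusted p under 0.05 there were 12 members (18.2%), against 30.6% of all genes. The median log2 fold change was 0.11, and 51 of the 66 had a positive sign. Mrps25, a small subunit protein found only in mitochondria, had the largest difference. It was at 51.4, 68.0 and 166 CPM (lowest, median, highest) in GFP, 29.0, 34.3 and 38.2 CPM in IFNα4 and 41.1, 48.7 and 65.1 CPM in IFNα9 tumors. Every IFNα9 tumor was thus above every IFNα4 tumor, as 2.08% of all genes were (0.741% the other way). The difference was 0.57 on the log2 scale (standard error 0.14, adjusted p = 0.00590, edgeR), and the changes against GFP tumors were −1.20 (standard error 0.15) and −0.63 (standard error 0.14). Mrps25 overlaps Nr2c2 on the opposite strand.

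Mrps2, a small subunit protein with a bacterial counterpart, was the other member whose tumors did not overlap, at 40.1, 43.5 and 48.2 CPM in IFNα4 and 49.0, 53.8 and 65.1 CPM in IFNα9 tumors. Its difference was 0.33 (standard error 0.09, adjusted p = 0.0119, edgeR). Mrps35, of the small subunit, differed by 0.36 (standard error 0.12, adjusted p = 0.0276, edgeR), a call lost without IFNα9 tumor 10 (0.29, adjusted p = 0.0769, edgeR), and Mrpl19, of the large subunit, by 0.33 (standard error 0.09, adjusted p = 0.0120, edgeR). No member passed when a difference of at least 1.2-fold was required (edgeR's glmTreat, 1 at an unadjusted p under 0.05), while without GFP tumor 7 the test with no such requirement called 10 members higher with IFNα9 (15.2%), against 12.8% of all genes. Mrpl12 differed by 0.27 (95% interval −0.07 to 0.62, adjusted p = 0.311, edgeR), or by 0.16 without IFNα9 tumor 5, and the interval also holds larger differences than those of Mrps2 and Mrpl19.

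Mitochondrial ribosomal proteins whose genes have other names were all lower as far as they were measured. Dap3, a small subunit protein that binds GTP, was at 64.3, 82.4 and 127 CPM (lowest, median, highest) in GFP, 39.3, 48.8 and 54.0 CPM in IFNα4 and 44.2, 53.1 and 68.7 CPM in IFNα9 tumors. It fell by 0.81 (standard error 0.10, adjusted p = 5.40e-08, edgeR) and by 0.61 (standard error 0.10, adjusted p = 1.10e-05, edgeR). Ptcd3 changed by −0.78 and −0.39, Aurkaip1 by −0.71 and −0.80, and Gadd45gip1 by −0.81 and −0.85, and each passed the test in both comparisons. Ptcd3, a small subunit protein with RNA-binding repeats, was also higher in IFNα9 than in IFNα4 tumors, by 0.40 (standard error 0.12, adjusted p = 0.0169, edgeR). Chchd1 was not analysed here, nor were the ribosomal and messenger RNAs of the mitochondrial genome.

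The counts of lists of genes that work with the mitochondrial ribosome are read against all genes, of which 34.1% were lower and 31.3% higher with IFNα4 and 28.9% and 26.9% with IFNα9. Of 25 genes for its assembly and for processing its RNA, 18 were lower and 3 higher with IFNα4, and 16 were lower and 1 higher with IFNα9. C1qbp, a protein of the mitochondrial matrix, had the largest fall of this list, by 1.12 (standard error 0.12, adjusted p = 6.05e-09, edgeR) and 0.87 (standard error 0.12, adjusted p = 1.24e-06, edgeR), and Mettl17, needed for assembly of the small subunit, rose by 0.46 and 0.36. Between the IFN-I–secreting types, Noa1 was higher by 0.33 and Ddx28 lower by 0.36 with IFNα9. Of 12 mitochondrial translation factors, 7 were lower and 1 higher with IFNα4, and 5 were lower and 0 higher with IFNα9. Tsfm, the exchange factor of elongation factor Tu, fell by 1.22 (standard error 0.15, adjusted p = 3.69e-08, edgeR) and 1.08 (standard error 0.15, adjusted p = 6.14e-07, edgeR), whereas the ribosome recycling factor Gfm2 rose by 0.18 with IFNα4 (standard error 0.05, adjusted p = 0.00331, edgeR). The initiation factor Mtif2 was higher by 0.31 and Gfm2 lower by 0.17 with IFNα9 than with IFNα4. Of 18 genes for mitochondrial aminoacyl-tRNA synthetases and related enzymes, 11 were lower with IFNα4 and 10 with IFNα9, and 1 was higher in each. Yars2 had the largest fall of these with IFNα9, by 0.91, while Hars2 rose by 0.37 and 0.33. Of 10 genes for replication and transcription of the mitochondrial genome, 6 were lower in each comparison, and 1 and 3 were higher, the latter near the share of all genes. Ssbp1 had the largest fall of them with IFNα4, by 0.63, and Polrmt with IFNα9, by 0.72, while the largest rises were those of Polg2 with IFNα4, by 0.28, and Mterf1b with IFNα9, by 0.45. Of 10 regulators of mitochondrial biogenesis, 8 were lower with IFNα4 and 5 with IFNα9. Ppargc1a, which encodes the coactivator PGC-1α, was at 296, 435 and 726 CPM in GFP, 124, 159 and 187 CPM in IFNα4 and 194, 251 and 559 CPM in IFNα9 tumors. It fell by 1.49 with IFNα4 (standard error 0.16, adjusted p = 2.89e-09, edgeR) and by 0.62 with IFNα9 (standard error 0.16, adjusted p = 0.00136, edgeR), a difference of 0.87 between these types (standard error 0.16, adjusted p = 2.03e-04, edgeR). Esrra had the largest fall of the regulators with IFNα9, by 0.91 (standard error 0.22, adjusted p = 7.62e-04, edgeR). On leaving out GFP tumor 7, 16 and 13 assembly genes were lower, and 6 and 5 genes of the mitochondrial genome's replication and transcription, while Polg2 no longer passed the test with IFNα4 (0.25, adjusted p = 0.0606, edgeR). The numbers of lower translation factors, synthetases and regulators were as with all tumors.

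**Figure D4:**
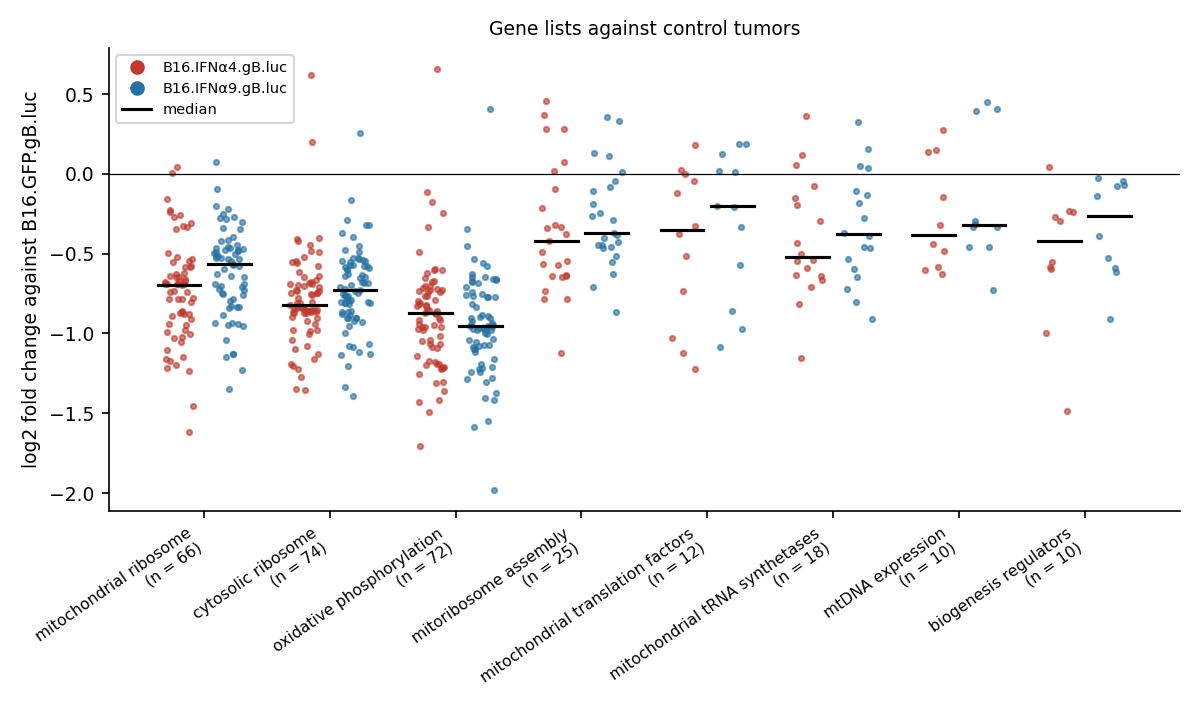
Log2 fold changes against GFP tumors of single genes (points) and their medians (black lines) for the mitochondrial ribosome and 7 other lists, in IFNα4 and IFNα9 tumors. The mitochondrial ribosomal protein genes have medians of −0.69 and −0.57, the cytosolic ribosomal protein genes −0.82 and −0.73, and the oxidative phosphorylation genes −0.87 and −0.96.

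Genes of the cytosolic ribosome and of the respiratory chain were also mostly lower. Of 74 cytosolic ribosomal protein genes, 72 were lower and 1 higher with IFNα4 (median −0.82), and 73 were lower and 0 higher with IFNα9 (median −0.73). Among them, Rplp1 had the largest fall with IFNα4, by 1.36, and Rpl29 with IFNα9, by 1.39, while Rpl39l rose by 0.62 with IFNα4 (standard error 0.20, adjusted p = 0.00681, edgeR). Between the IFN-I–secreting types, Rpl13a was higher by 0.47 with IFNα9 and Rpl3l lower, at −1.003 on the log2 scale. In that comparison 6 of 7 skeletal muscle genes were also lower with IFNα9 (median −0.96), and their part in the difference of Rpl3l was not tested. Of 72 nuclear genes for subunits of oxidative phosphorylation, 68 were lower and 1 higher with IFNα4 (median −0.87), and 70 were lower and 0 higher with IFNα9 (median −0.96), with Cox4i2, a subunit of cytochrome c oxidase, at −1.71 and −1.98 the most strongly lower gene in both. Cox6b2, a further subunit of that oxidase, rose by 0.66 with IFNα4 (adjusted p = 0.0169, edgeR). In each tumor, the mean log2 CPM of the mitochondrial ribosomal protein genes minus that of the cytosolic ones ran from −3.29 to −2.63 in GFP, from −3.14 to −2.75 in IFNα4 and from −3.03 to −2.63 in IFNα9 tumors, ranges that overlapped almost fully. Minus the oxidative phosphorylation genes, it ran from −1.65 to −1.11, from −1.38 to −1.08 and from −1.38 to −0.89, with medians of −1.38, −1.25 and −1.05. These differences were not tested. When GFP tumor 7 was left out, 72 cytosolic ribosomal protein genes were lower in each comparison (medians −0.63 and −0.55), as were 67 and 70 oxidative phosphorylation genes (medians −0.71 and −0.79).

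Several mitochondrial ribosomal protein genes start close to a neighbor on the opposite strand. In GENCODE M21, 26 of the 66 had the start of an opposite protein-coding gene within 1000 bases. Mrps11 and Mrpl46, with starts 412 bases apart, are neighbors of each other, and both were lower with IFNα4 (−1.03 and −0.74) and with IFNα9 (−0.70 and −0.47). Of the 24 partners that are not members, 20 were tested, and 11 were lower and 5 higher with IFNα4 and 7 and 5 with IFNα9, with medians of −0.31 and −0.15. Of all genes, 34.1% were lower and 31.3% higher with IFNα4 and 28.9% and 26.9% with IFNα9, so that the partners' shares with IFNα9 were near the background. Mrps12 and its neighbor Sars2, starts 172 bases apart, were both lower, as were Mrpl47 and Ndufb5, 615 bases apart. Mrpl30, by contrast, was lower (−0.62 and −0.69) while its neighbor Mitd1, chosen after its values were seen and with a start 66 bases away, rose by 1.19 and 1.11. The strand setting of the counting is not given, so reads of overlapping neighbors could have been mixed.

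Markers of some cell types differed between the tumor types. Counts against GFP tumors are read against all genes, of which 34.1% were lower and 31.3% higher with IFNα4 and 28.9% and 26.9% with IFNα9. All 6 melanocyte genes measured were lower in both comparisons, with medians of −1.96 and −1.03, and 5 of these 6 were higher with IFNα9 than with IFNα4. The 5 leukocyte genes were higher in both, with medians of 1.62 and 1.01, and summed to 158 to 529 CPM in GFP, 854 to 1764 CPM in IFNα4 and 611 to 1183 CPM in IFNα9 tumors. Of 8 T and NK cell genes, 8 were higher with IFNα4 and 7 with IFNα9. GFP tumor 7, with the highest level of the 66 genes, also had the highest mean of the melanocyte genes, 10.2 log2 CPM against 8.52 to 9.27 for the 9 remaining GFP tumors, and the lowest mean of the leukocyte genes, 4.81 against 5.57 to 6.59. Of the other lists, 2 of 7 macrophage genes were higher and 2 lower with IFNα4, and 2 were higher and 0 lower with IFNα9. With GFP tumor 7 left out, 5 macrophage genes were lower with IFNα4 and 1 was higher with IFNα9. Among 5 endothelial genes, 3 were lower in each comparison and 1 was higher with IFNα4. In 7 muscle genes there were 0 calls with IFNα4 and 4 lower with IFNα9 (6 without GFP tumor 7). In 4 keratinocyte genes 3 and 1 were higher. Of 5 fibroblast genes, 2 and 1 were higher, and 1 of 5 adipocyte genes was lower in each. The lowest adipocyte values were −5.46 and −5.60, while the medians of that list were 0.39 and 0.22. No listed marker that was measured was at 0 throughout a type, and the part of the cell makeup in the differences of the mitochondrial ribosomal protein genes was not tested.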

How the data were processed

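Poly(A) RNA of 30 whole tumors was sequenced from stranded libraries, with 1 read of 50 bases per fragment. The authors checked reads with FastQC 0.11.3 and aligned them with HISAT2 2.0.4, to mm10 per the labels, while the methods name another build. The deposited values are counts per gene, made by the authors with summarizeOverlaps and not normalized. The annotation release, overlap mode, strand setting and treatment of reads that map to several places are not given in the sources used here, so that overlapping genes and genes with pseudogene copies are uncertain. Type and number of a tumor come from the labels, which do not name the mouse. The p-values therefore measure the spread between these samples.

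Gene identifiers were matched to GENCODE M21 (GRCm38), which held 39495 of 39676, and coordinates are those of that annotation. The tests used edgeR 4.0.16 (R 4.3.3) on genes whose mean count was 10 or more, with TMM scaling, 1 quasi-likelihood fit of all 30 tumors, and Benjamini-Hochberg adjustment over all 15926 genes with a threshold of 0.05. The common biological coefficient of variation was 0.281. The standard error was derived from the log2 fold change and its F statistic. The fit was tested on simulated data.

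The genes and the lists set beside them were chosen with earlier results of these data known. Genes named are those with the 5 largest rises and falls among called members in each comparison, the 5 highest and lowest per kb, those nearest the count minimum, a set of members named for their function, and for each pathway list the called genes with the largest rise and fall. Others are marked where they appear or name neighbors in the genome. 1 gene that this rule names is not reported here. Alternatives were DESeq2 1.42.0 or its size factors, library totals, filterByExpr, no filter, only the types compared, a replicate block, a required 1.2-fold difference and leaving out each tumor. The tumor numbers did not pair the samples, so the replicate block is given only with the alternatives. Promoter sequence came from RefSeq (GRCm38.p6). Figures were made in matplotlib 3.10.9 under Python 3.11.15, with tables read by pandas 2.3.3.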

Additional observations from a re-analysis of the deposited data

Results flagged for a closer look

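Dixon's test at the 95% level, which divides the distance between an extreme tumor and its neighbor by the range of the type, was applied to 90 sets of 10 tumors, those of 25 named genes and 5 summaries in 3 types, where chance gives about 4.5 extreme tumors, 1 in 20. There were 20, of which 14 were in GFP tumor 7, and many of these genes move together, so that the 20 are not independent.

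GFP tumor 7 was the highest of its type for the mean log2 CPM of all 66 genes (6.29), of the large subunit genes (6.34) and of the small subunit genes (6.19). It also had the highest log2 CPM of its type for Mrps33 (7.95), Mrps25 (7.37), Mrps23 (7.02), Mrpl44 (6.99), Mrpl18 (6.99), Mrpl48 (6.86), Mrps2 (6.83), Mrpl58 (6.60), Mrpl45 (6.48), Mrps24 (6.37) and Mrps36 (6.31).

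IFNα9 tumor 5 was the highest of its type for Mrpl12 (6.23), Mrpl10 (5.53), Mrps36 (5.05), Mrpl28 (4.96) and Mrps24 (4.59). It was the lowest of its type for the mean of the 66 genes minus that of the oxidative phosphorylation genes (−1.38). Without this tumor, 63 of the 66 genes were still lower than in GFP tumors, with a median log2 fold change of −0.59, and 4 were higher than in IFNα4 tumors. Of all genes, 29.6% were then lower than in GFP tumors and 11.6% higher than in IFNα4 tumors.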

How the results depend on the processing

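The number of genes that differed from GFP tumors stayed between 55 and 63 with IFNα4 and between 54 and 64 with IFNα9, and the median log2 fold change between −0.76 and −0.58 and between −0.60 and −0.44, over all alternatives. A required difference of 1.2-fold gave the lowest counts, 55 and 54. Between the IFN-I–secreting types, where 4 genes differed, 10 did with library totals, 14 with only the 20 tumors of these types, 6 with filterByExpr and 0 with a required difference of 1.2-fold, all of them higher with IFNα9. Of all genes, 10.5% were higher, and 12.7%, 14.8%, 11.8% and 3.70% under these alternatives. Leaving out single tumors gave 3 to 10, with 10 without GFP tumor 7, 7 without GFP tumor 1 and 7 without IFNα9 tumor 4, where 12.8%, 12.1% and 11.02% of all genes were higher. Of the 4, Mrps35 was not past the threshold without IFNα9 tumor 10. DESeq2 gave 62, 63 and 4 genes. The causes were not tested. With the tumor number as a replicate block, 61, 63 and 5 genes differed. The numbers did not pair the tumors: correlations of same-numbered tumors ran from −0.27 to 0.30, and at most 1 of 10 tumors correlated best with its own number.

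The sign of Mrpl1 with IFNα4, 0.01 in the report, was −0.016 with filterByExpr, −0.0020 with only the types compared, and between −0.036 and 0.048 when single tumors were left out. With IFNα9 the sign of Mrpl1 turned to 0.0042 under library totals. Leaving out single tumors turned the sign of Mrps18c with IFNα4 (−0.21 to 0.024), and, between the IFN-I–secreting types, of Mrps21 (−0.0026 to 0.093), Mrps26 (−0.030 to 0.10) and Mrps18b (−0.062 to 0.014). None of these passed the test. At totals of 14598517 to 19788383 counts the 66 genes had means of at least 136 counts, and smaller differences than those called here may have gone undetected.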
